A study of Mus musculus with 9 samples.

Results

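The clustered protocadherins of cultured mouse adipose-derived stem cells (ASCs) were followed across 3 fat depots. A member was any gene with the biotype protein_coding whose symbol follows the Pcdha, Pcdhac, Pcdhb, Pcdhga, Pcdhgb or Pcdhgc numbering, and 57 of the 54532 genes in the count table met this rule. They were 14 alpha, 22 beta and 21 gamma genes, the last made of 12 A-type, 6 B-type and 3 C-type genes. Pcdhgb8 carries the same kind of name but is annotated as a polymorphic pseudogene, and was not counted as a member. The symbol Pcdha11 stood on 2 alpha genes, ENSMUSG00000007440 and ENSMUSG00000102206, and the second had no reads in any library, so Pcdha11 means the first hereafter.

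The source was fat of C57BL/6 mice, taken under the skin for the subcutaneous group (Sub-ASC), from the abdomen for the abdominal group (Ab-ASC) and around vessels for the perivascular group (PVASC), with 3 libraries per group and 9 in all. They were expanded in a stem cell medium and collected between passages 3 and 6. No group carried a transgene or a treatment, and the age, sex and number of donor mice are not given in the sources used here. Nothing states that the libraries of a group came from separate cultures or animals, so the p-values measure only the spread between these libraries, which may be technical.

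Clustered protocadherins are adhesion proteins of the cadherin family, best known in neurons, where each cell switches on its own small set of them and like sets recognise each other across membranes. In the alpha and gamma clusters every gene has its own promoter and its own variable exon, which codes for the outer and membrane parts and is spliced to constant exons that the whole cluster shares. The beta genes have no such shared tail. Promoter choice is known to depend on CTCF, on cohesin loops to distant enhancers and on DNA methylation, while the C-type genes at the ends of the alpha and gamma clusters are chosen less randomly in neurons than the others.

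All members lie on the plus strand of chromosome 18 of GRCm38, the alpha cluster between 36930184 and 37187661, the beta cluster between 37264938 and 37524479 and the gamma cluster between 37661793 and 37841873. In the GENCODE M21 annotation, 2860 exon bases were common to every alpha member and 2116 to every gamma member. The bases that belonged to no other gene had a median of 2475 in alpha, 2601 in gamma and 3714 in beta members. In the beta cluster exon bases were shared only by Pcdhb21 and Pcdhb22, over 455 bases. Reads of a shared exon cannot be given to any single member, and how the authors' counting treated them is not given in the sources used here. Pcdhga10, whose exon bases all belong to another gene as well, had between 0 and 2 reads per library. Strand-specific counting is not stated, so members with antisense partners are less certain, among them Pcdhgc3 with 1559 exon bases under BC037039, Pcdhb12 with 1927 under Gm37446 and Pcdhga11 with 1381 under Gm26672.

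Depth ranged from 20524173 to 29881036 counted reads per library. Over all 9 libraries the members held 74413 reads, of which gamma members took 77.9%, beta members 20.9% and alpha members 1.19%. With at least 3 reads in every library as the limit of detection, 44 members were detected in Sub-ASCs, 42 in Ab-ASCs and 42 in PVASCs. Pcdha4, the second Pcdha11 and Pcdhb1 had no reads anywhere, and a count of 0 allows up to 3 reads per library, or 0.0917 to 0.161 CPM, by counting error only.

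Levels of different genes were compared as FPKM, that is fragments scaled to gene length and library size, calculated from the counts, the deposited gene length and the library total. Pcdhgc3, a C-type gamma gene that is also used outside the nervous system, stood above the rest with 32.9, 32.9 and 35.4 FPKM in Sub-ASCs, 11.7, 11.5 and 11.6 in Ab-ASCs and 17.1, 17.7 and 17.1 in PVASCs. Its mean over the 9 libraries was 20.9 FPKM, 6.70 times that of Pcdhgb6, the next gamma member, and 11.1 times when only the exon bases of no other gene were taken as length. Pcdhgb6, Pcdhgc5 and Pcdhgb2 followed with means of 3.12, 2.85 and 2.39 FPKM. In the beta cluster Pcdhb17, Pcdhb22, Pcdhb16 and Pcdhb5 led with 2.77, 1.78, 1.44 and 1.15 FPKM. Alpha members were far lower, and Pcdhac2, the alpha member with the highest level, had a mean of 0.376 FPKM, ahead of Pcdha11, Pcdha5 and Pcdha12, which was at 0.0275 FPKM.

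**Figure D1:**
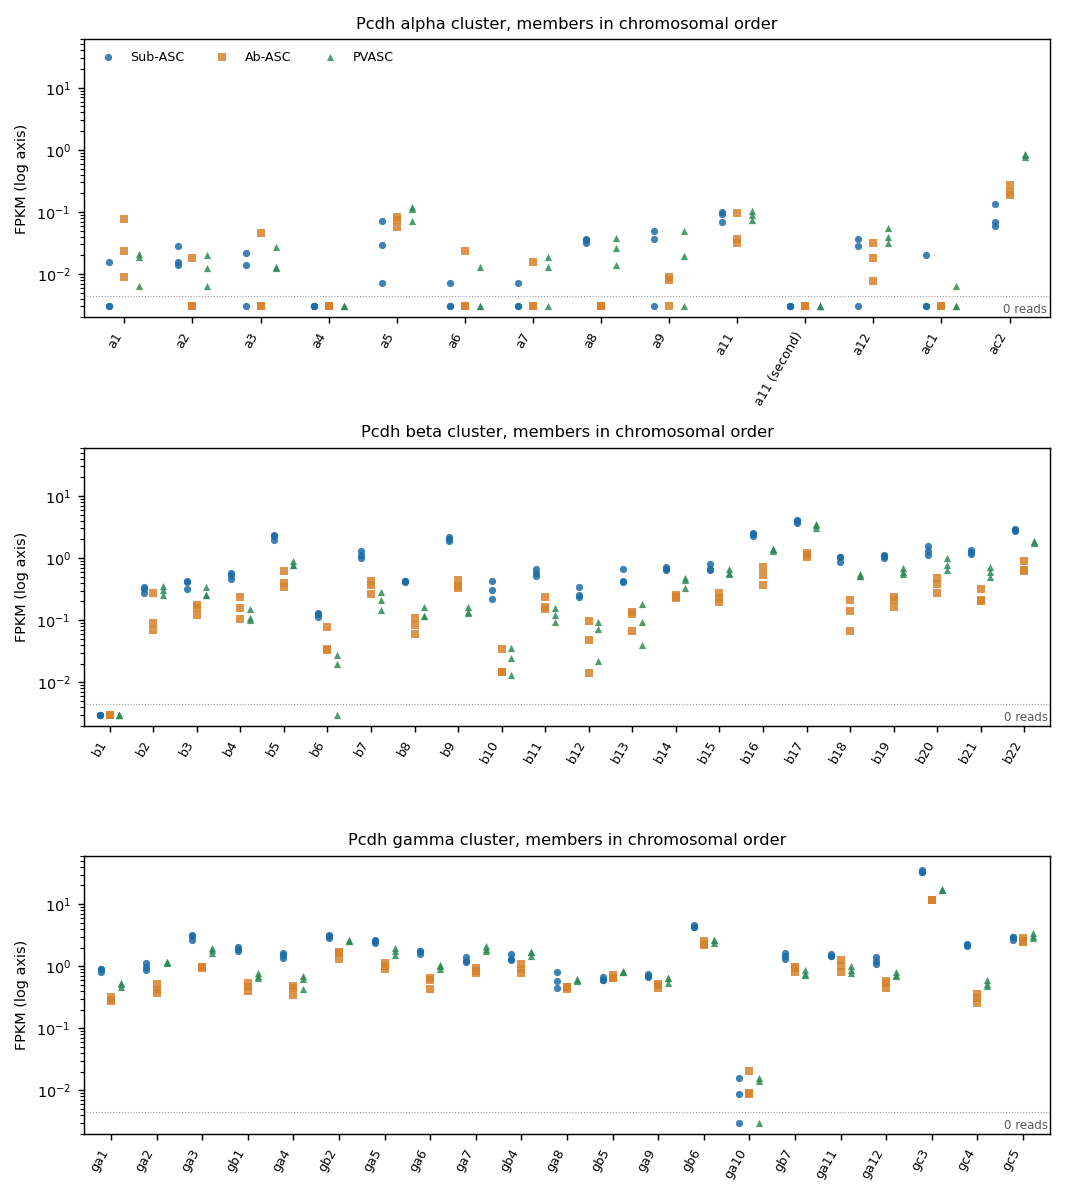
FPKM of each member (log axis) in the 9 libraries, by cluster and in chromosomal order, with circles for Sub-ASC, squares for Ab-ASC, triangles for PVASC and libraries without reads drawn under the dotted line. Most alpha members sit near or at 0 reads apart from Pcdhac2 (mean 0.376 FPKM), beta and gamma members form a band, and Pcdhgc3 (mean 20.9 FPKM) stands above it.

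Differences between depots were tested gene by gene with edgeR's quasi-likelihood test on the counts of all 9 libraries, with p-values adjusted by Benjamini-Hochberg over all 16526 genes that passed the low-count filter and a threshold of 0.05. Of the 57 members, 44 passed the filter, namely 3 alpha, 21 beta and 20 gamma members. In 33 of these, every library of all 3 groups reached the filter's level of 0.385 CPM, that is counts scaled to library size. Pcdhb4, Pcdhb6, Pcdhb10, Pcdhb12 and Pcdhb13 passed only through the Sub-ASC libraries, where they were high, so that a difference was a condition of their being tested. Likewise Pcdhb2, Pcdhb8 and Pcdhb18 passed through Sub-ASCs and PVASCs, Pcdhac2 through Ab-ASCs and PVASCs, and Pcdha11 through PVASCs. In Pcdha5, the last of the 44, no group had all its libraries at that level. Values by library are given below as CPM after TMM scaling of library sizes, and errors of means are SDs over 3 libraries. In bulk RNA, fewer cells that use a gene and less of its RNA per cell cannot be told apart.

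As summed clusters, beta and gamma members were highest in Sub-ASCs and lowest in Ab-ASCs, while alpha members were highest in PVASCs. The beta sum was 113 ± 0.874 CPM in Sub-ASCs, 29.5 ± 2.39 in Ab-ASCs and 55.5 ± 1.05 in PVASCs, with no overlap between the groups. The sum of gamma A and B members was 148 ± 4.67, 75.5 ± 5.01 and 96.3 ± 4.03 CPM in the same order, and that of the gamma C members 225 ± 9.79, 91.5 ± 3.55 and 111 ± 3.74. For alpha the sums were 1.93 ± 0.185, 2.66 ± 0.200 and 6.08 ± 0.186 CPM. Among the sums the largest difference was that of beta members between Ab-ASCs and Sub-ASCs, at a log2 difference of -1.94 ± 0.06 (SE). PVASCs differed from Sub-ASCs by 1.66 ± 0.13 (SE) in alpha, -1.03 ± 0.06 in beta, -0.62 ± 0.06 in gamma A and B, and -1.01 ± 0.06 in gamma C. All 12 comparisons of sums between pairs of groups passed the edgeR quasi-likelihood test with Benjamini-Hochberg adjustment, with the highest adjusted p = 0.0119 for alpha between Ab-ASCs and Sub-ASCs.

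The alpha sums rested on Pcdhac2. Without it, the alpha sum of PVASCs differed by 0.26 from that of Sub-ASCs (adjusted p = 0.237, edgeR) and by 0.41 from that of Ab-ASCs (adjusted p = 0.0914), and the sum of Ab-ASCs by -0.16 from that of Sub-ASCs (adjusted p = 0.508), so that no alpha call was left and the last difference changed sign. Likewise, without Pcdhgc3 the gamma C sum of PVASCs and Ab-ASCs differed by 0.067 (adjusted p = 0.509, edgeR), and the gamma C differences from Sub-ASCs shrank to -0.51 in PVASCs (adjusted p = 8.4e-05) and -0.58 in Ab-ASCs (adjusted p = 3.22e-05). The beta sums kept their calls without Pcdhb17, which took the most reads of the cluster. Ab-ASC replicate 1 stood furthest from its group over all genes, and without it the beta sums still differed by -1.87 between Ab-ASCs and Sub-ASCs.

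**Figure D2:**
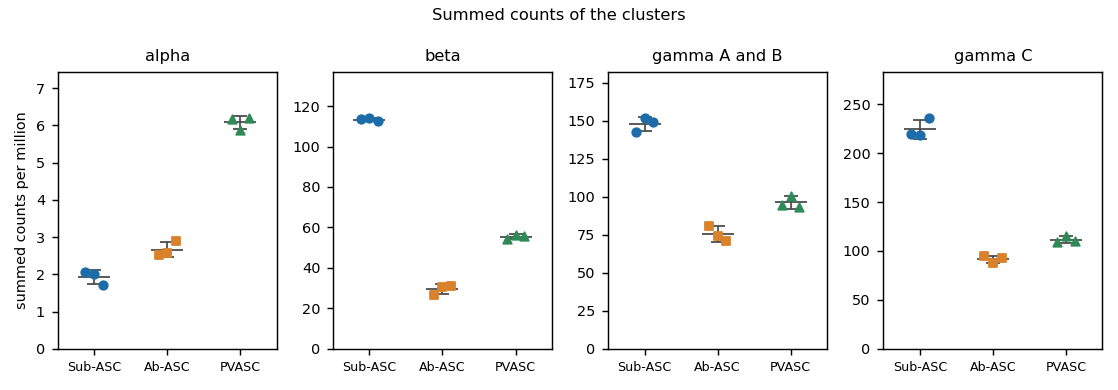
Summed CPM of the alpha, beta, gamma A and B, and gamma C members in each library, with the mean of each group as a dash, its SD as an error bar and every axis starting at 0. Beta and gamma sums are highest in the 3 Sub-ASC libraries (beta mean 113), and the alpha sum is highest in the 3 PVASC libraries (mean 6.08).

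The comparison of PVASCs with Sub-ASCs asked how the perivascular cells differ from the subcutaneous ones. Of the 44 members tested, 33 were lower and 3 higher in PVASCs, where 35.7% and 34.7% of all genes tested were called in these directions and 70.4% in either. Without the 5 that passed the filter through Sub-ASCs alone, 28 of 39 were lower. With a log2 difference of at least 1 also required, 17 were lower. The 33 were 19 beta and 14 gamma members, and the 3 higher members were Pcdhac2, Pcdha5 and Pcdhga7. The median log2 difference of the members was -0.94, against -0.01 for all genes tested.

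Between PVASCs and Ab-ASCs the direction was mostly the opposite. Here 22 of the 44 members were higher in PVASCs (24.7% of all genes tested) and 5 were lower (32.1%, with 56.9% called in either direction), with a median log2 difference of 0.50 against -0.06 for all genes. Among the 33 members at the filter's level in every group, 20 were higher and 5 lower. Higher were Pcdhac2, 10 beta and 11 gamma members, and 9 of these 22 differed by at least 1 on the log2 scale. Lower were Pcdhb7, Pcdhb9, Pcdhb11, Pcdhgb7 and Pcdhga11, and this small count depended on single libraries, since it was 1 without PVASC replicate 1, 2 without PVASC replicate 3 and 3 without any of Sub-ASC replicate 2, Ab-ASC replicate 1 or Ab-ASC replicate 2. Pcdhb9 kept its call under every setting tried.

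Ab-ASCs were lower than Sub-ASCs in 38 of the 44 members (38.3% of all genes tested) and higher in Pcdhac2 alone (37.0%, with 75.3% called in either direction). Without the 5 that passed the filter through Sub-ASCs alone, 33 of 39 were lower, and among the 33 members at the filter's level in every group 30 were. The lower members included the 16 beta members outside those 5, with log2 differences between -1.02 (Pcdhb2, at -1.85 without Ab-ASC replicate 3) and -2.72, and 17 of the 20 gamma members. The members' median log2 difference was -1.52, against -0.03 for all genes. When at least 10 reads were required in every library, 30 members were lower and Pcdhac2, with 9 reads in Sub-ASC replicate 2, was no longer among the genes tested. Since these comparisons share their libraries, they are not independent of each other. For any difference among the groups 38 members were called, close to the 84.6% of all genes tested.

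By these calls, 17 members, 9 beta and 8 gamma, followed the order Sub-ASC above PVASC above Ab-ASC, an order held by 7.88% of all genes tested. Another 11 members were highest in Sub-ASCs without a call between PVASCs and Ab-ASCs (14.4%), or 6 without the 5 that passed the filter through Sub-ASCs alone. In 5 members PVASCs were the lowest of the 3 groups (6.46%), namely those called lower in PVASCs than in Ab-ASCs above. Pcdhb15, Pcdhga2 and Pcdhgb4 were lower in Ab-ASCs than in both other groups, which were not called apart (5.66%). Pcdhga7 was highest in PVASCs and lowest in Ab-ASCs (2.10%), and Pcdhac2 was higher in PVASCs than in both others (8.13%). The remaining 6 members, Pcdha5, Pcdha11, Pcdhb2, Pcdhga8, Pcdhgb5 and Pcdhgc5, had fewer calls than any of these orders needs.

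**Figure D3:**
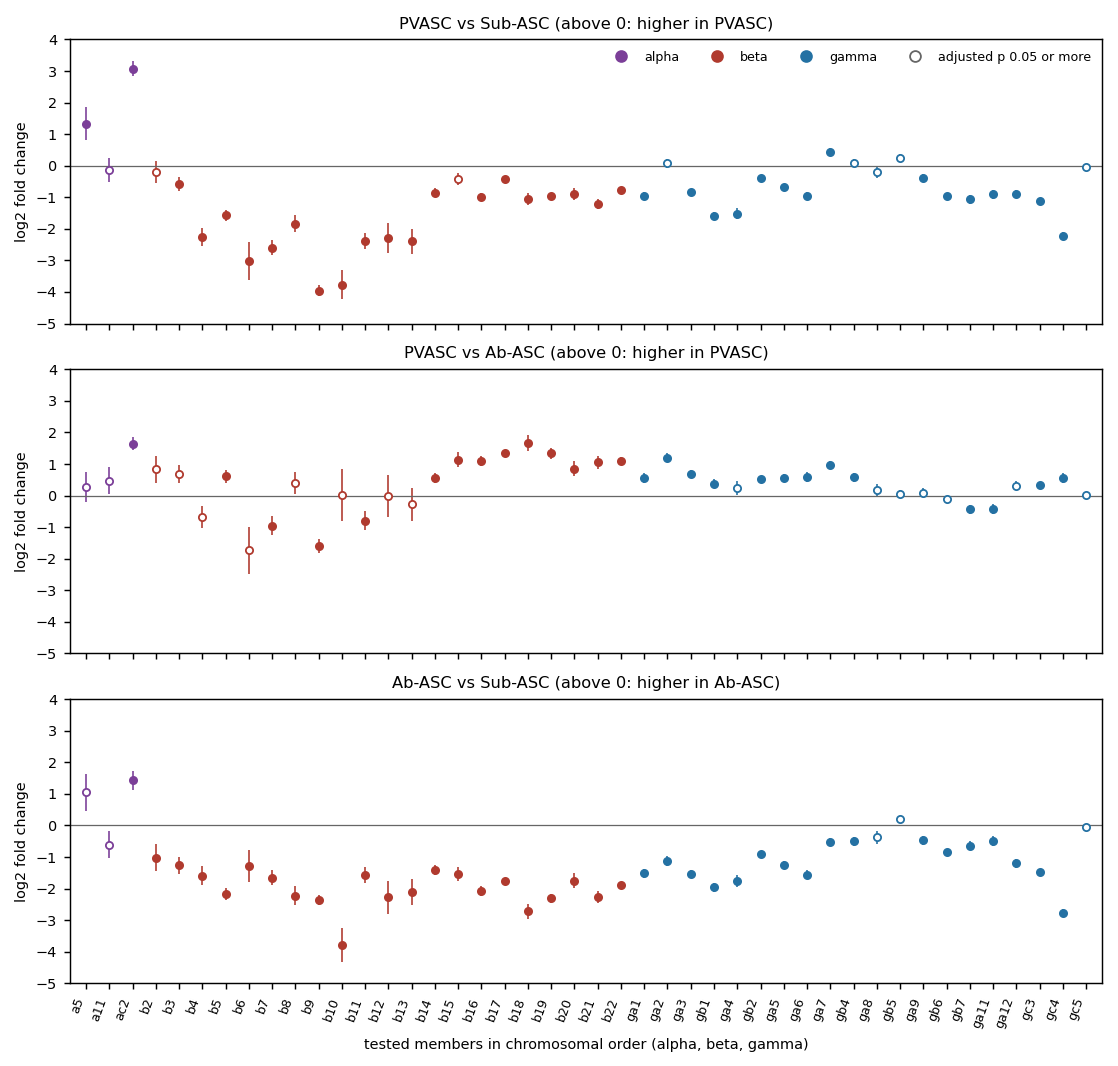
Log2 fold change with its standard error for the 44 members tested, in chromosomal order, for each pair of groups, with filled points for adjusted p under 0.05 and open points otherwise. In the top panel Pcdhb9 (-3.96) is the lowest point and Pcdhac2 (3.07) the highest, and in the middle panel Pcdhb14 to Pcdhb22 all lie above 0.

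In the alpha cluster Pcdhac2 was the single member with more than 18 reads in any library. Pcdhac2 is a C-type alpha gene known for its part in the spacing of serotonergic axons. Its level was 0.816, 0.354 and 0.419 CPM in the Sub-ASC libraries, 1.23, 1.29 and 1.69 in the Ab-ASC libraries and 4.59, 4.20 and 4.42 in the PVASC libraries. The 3 groups did not overlap, and the gene had passed the filter through Ab-ASCs and PVASCs, not through Sub-ASCs. PVASCs were 8.38-fold above Sub-ASCs (log2 3.07 ± 0.24 SE, edgeR quasi-likelihood adjusted p = 1.56e-07) and 3.11-fold above Ab-ASCs (1.64 ± 0.21, adjusted p = 3.62e-05). Ab-ASCs were 2.69-fold above Sub-ASCs (1.43 ± 0.29, adjusted p = 0.000767). Within the alpha cluster Pcdhac2 took 27.2 ± 11.2% of the reads in Sub-ASCs, 52.5 ± 5.22% in Ab-ASCs and 72.4 ± 1.62% in PVASCs.

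The other alpha members were close to the limit of counting. Pcdha5 had 9, 4 and 1 reads in Sub-ASCs, 9, 9 and 7 in Ab-ASCs and 11, 16 and 18 in PVASCs. It was called higher in PVASCs than in Sub-ASCs (log2 1.34 ± 0.53 SE, edgeR adjusted p = 0.0405), a call that 7 of 14 alternative settings did not keep. Its size rested on single libraries, at 2.26 without Sub-ASC replicate 1 and 0.83 without Sub-ASC replicate 3. Pcdha11 had between 4 and 16 reads per library and Pcdha12 between 0 and 8, and Pcdha11 was not called while Pcdha12 did not pass the filter. Pcdhac1, the other C-type alpha gene, had 3 reads in Sub-ASC replicate 3, 1 in PVASC replicate 3 and none in the other 7 libraries. Pcdha8 was seen in all Sub-ASC and PVASC libraries, with 2 to 6 reads each, and in no Ab-ASC library, at counts too low for a test. The remaining alpha members did not exceed 10 reads in any library.

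Beta members are single-exon genes whose separate roles are little known, and their reads are the least affected by shared exons. Pcdhb17, the beta member with the highest level, had 17.6, 18.8 and 19.4 CPM in Sub-ASCs, 5.32, 5.38 and 5.93 in Ab-ASCs and 14.8, 12.9 and 14.4 in PVASCs. Pcdhb22 had 18.3, 19.6 and 18.9, then 4.56, 6.18 and 4.50, then 10.97, 11.5 and 10.6 CPM. For both genes the Ab-ASC libraries were lowest, the PVASC libraries intermediate, and no library overlapped with another group. PVASCs were 1.32-fold below Sub-ASCs in Pcdhb17 (log2 -0.41 ± 0.08 SE, edgeR adjusted p = 0.000856) and 2.53-fold above Ab-ASCs (1.34 ± 0.10, adjusted p = 2.4e-07). Pcdhb16 and Pcdhb5, also among the highest beta members, were 4.25-fold and 4.55-fold lower in Ab-ASCs than in Sub-ASCs.

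Pcdhb18 showed the largest difference between PVASCs and Ab-ASCs among the called beta members. It had 5.37, 5.38 and 4.50 CPM in Sub-ASCs, 0.376, 1.11 and 0.758 in Ab-ASCs and 2.38, 2.34 and 2.58 in PVASCs. PVASCs were 3.16-fold above Ab-ASCs (log2 1.66 ± 0.26 SE, edgeR adjusted p = 0.000184), and Ab-ASCs were 6.58-fold below Sub-ASCs (-2.72 ± 0.24, adjusted p = 4.65e-07). The groups did not overlap. Pcdhb18 had passed the filter through Sub-ASCs and PVASCs, where it was higher, and not through Ab-ASCs. Pcdhb19, also among the largest differences of this comparison, was 2.52-fold above Ab-ASCs in PVASCs (1.34 ± 0.16, adjusted p = 2.5e-05).

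Pcdhb9 gave the largest difference of any member between PVASCs and Sub-ASCs. Its levels were 5.97, 6.88 and 6.29 CPM in Sub-ASCs, 1.13, 1.42 and 1.16 in Ab-ASCs and 0.459, 0.373 and 0.382 in PVASCs. In contrast to Pcdhb17 and Pcdhb18, PVASCs were the lowest group here, at 15.6-fold below Sub-ASCs (log2 -3.96 ± 0.18 SE, edgeR adjusted p = 6.33e-10) and 3.04-fold below Ab-ASCs (-1.60 ± 0.23, adjusted p = 0.000103). Pcdhb10 had 21, 16 and 33 reads in Sub-ASCs, 2, 1 and 1 in Ab-ASCs and 3, 1 and 2 in PVASCs. Summed over libraries this is a ratio of Sub-ASCs to Ab-ASCs of 14.8 (95% interval 5.54 to 56.0 from counting error) and to PVASCs of 14.6 (6.37 to 41.1). Pcdhb6 had 11, 11 and 13 reads in Sub-ASCs, 6, 3 and 3 in Ab-ASCs and 0, 2 and 3 in PVASCs, a ratio of Sub-ASCs to PVASCs of 8.75 (3.41 to 28.6). Both genes had at most 6 reads in any library outside the Sub-ASC group, and both had passed the filter through the Sub-ASC libraries only.

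Along the chromosome the beta members fell into stretches by their PVASC values, a grouping made after the values were seen and not tested. In Pcdhb4 to Pcdhb13, 10 neighbouring genes, PVASCs were below Sub-ASCs by log2 differences from -1.58 to -3.96, and all 10 were called, a count that the choice of the stretch fixes and from which nothing is read. For 5 of the 10 (Pcdhb4, Pcdhb6, Pcdhb10, Pcdhb12 and Pcdhb13), which passed the filter through Sub-ASCs alone, a difference was also a condition of being tested. The other 5, Pcdhb5, Pcdhb7, Pcdhb8, Pcdhb9 and Pcdhb11, spanned the same range. In Pcdhb14 to Pcdhb22, the 9 genes that follow, these differences ran from -0.41 to -1.22 with 8 calls (35.7% of all genes tested). Against Ab-ASCs the first stretch had 1 member higher and 3 lower in PVASCs (24.7% and 32.1% of all genes tested). All 9 members of the second stretch were higher, by 0.56 to 1.66, among them Pcdhb18, which had not passed the filter through Ab-ASCs. Since the PVASC values drew the stretches, nothing is read from these counts either. Pcdhb2 and Pcdhb3, which precede both stretches, differed from Sub-ASCs by -0.19 and -0.58. Between Ab-ASCs and Sub-ASCs the other 5 members of the first stretch differed by -1.58 to -2.36 and the second stretch by -1.41 to -2.72.

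Gamma members carried most of the reads, and the C-type genes, which lie last in the cluster, went separate ways. Pcdhgc3, whose protein is known to bind Axin1 and dampen Wnt signalling, had 185, 185 and 199.7 CPM in Sub-ASCs, 71.0, 66.4 and 67.5 in Ab-ASCs and 85.9, 89.4 and 85.8 in PVASCs. PVASCs were 2.18-fold below Sub-ASCs (log2 -1.12 ± 0.05 SE, edgeR adjusted p = 1.48e-09) and 1.27-fold above Ab-ASCs (0.35 ± 0.06, adjusted p = 0.000204). The PVASC and Ab-ASC libraries were close to each other here, without overlap.

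Pcdhgc4, a gene that developing interneurons need for survival, had 12.3, 12.8 and 12.9 CPM in Sub-ASCs, 1.56, 1.78 and 2.14 in Ab-ASCs and 3.03, 2.51 and 2.61 in PVASCs. Ab-ASCs were 6.87-fold below Sub-ASCs (log2 -2.78 ± 0.13 SE, edgeR adjusted p = 1.06e-09) and PVASCs 4.65-fold below them (-2.22 ± 0.12, adjusted p = 2.9e-09), the largest gamma differences of both comparisons. Pcdhgc5, its neighbour, had 22.7, 20.4 and 23.1 CPM in Sub-ASCs, 21.8, 19.4 and 23.1 in Ab-ASCs and 19.8, 23.7 and 21.4 in PVASCs. These ranges overlapped in full, and no difference was called, with log2 differences of PVASCs of -0.03 ± 0.09 (SE) from Sub-ASCs and 0.01 ± 0.09 from Ab-ASCs, and of Ab-ASCs of -0.04 ± 0.09 from Sub-ASCs. The share of gamma reads taken by Pcdhgc5 was 5.93 ± 0.374% in Sub-ASCs, 12.8 ± 1.11% in Ab-ASCs and 10.4 ± 0.627% in PVASCs. The share of all C-type genes together was 60.3 ± 1.18%, 54.8 ± 1.48% and 53.6 ± 0.386% in the same order.

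**Figure D4:**
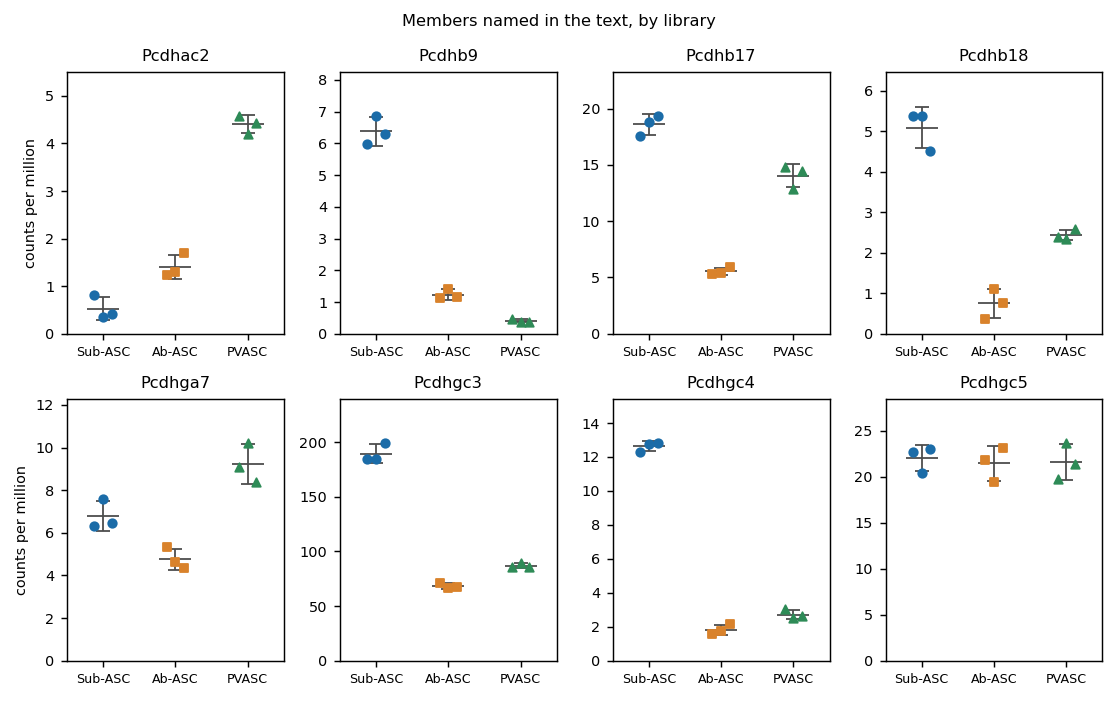
CPM of 8 members in each library, with the mean of each group as a dash, its SD as an error bar and every axis starting at 0. Pcdhac2 and Pcdhga7 are highest in PVASCs (means 4.40 and 9.24), Pcdhb9, Pcdhb17, Pcdhb18, Pcdhgc3 and Pcdhgc4 in Sub-ASCs, and the groups of Pcdhgc5 overlap (means 21.5 to 22.1).

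A-type and B-type gamma genes alternate along the first part of the cluster and did not all follow a single order of depots. Of those tested, 10 of 11 A-type and 5 of 6 B-type genes were lower in Ab-ASCs than in Sub-ASCs (38.3% of all genes tested). None was higher (37.0%). In PVASCs 8 A-type and 4 B-type genes were lower than in Sub-ASCs (35.7%), and 1 A-type gene was higher (34.7%). Pcdhgb6, the highest of them per length, had 20.7, 20.6 and 22.5 CPM in Sub-ASCs, 13.0, 10.8 and 11.5 in Ab-ASCs and 10.1, 11.3 and 11.5 in PVASCs. Only its Sub-ASC libraries stood apart, 1.94-fold above PVASCs (log2 difference of PVASCs -0.96 ± 0.09 SE, edgeR adjusted p = 7.9e-07). Pcdhgb2 had 14.3, 15.7 and 15.5, then 9.13, 8.40 and 6.69, then 11.7, 11.5 and 11.5 CPM, in the order Sub-ASC, PVASC, Ab-ASC without overlap.

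The largest differences from Sub-ASCs outside the C-type genes were those of Pcdhgb1 and Pcdhga4, which overlap each other by more exon bases than other gamma neighbours. Pcdhgb1 had 10.2, 12.0 and 11.3 CPM in Sub-ASCs, 2.90, 2.40 and 3.30 in Ab-ASCs and 4.04, 3.73 and 3.44 in PVASCs. Pcdhga4 had 7.90, 7.23 and 6.60, then 2.52, 1.69 and 2.23, then 2.69, 3.02 and 1.84 CPM. PVASCs were 2.99-fold and 2.88-fold below Sub-ASCs in these genes (edgeR adjusted p = 1.27e-07 and 6.32e-06), and for Pcdhga4 the Ab-ASC and PVASC libraries overlapped.

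A few A-type and B-type genes kept or exceeded the Sub-ASC level in PVASCs. Pcdhga7 had 6.31, 7.59 and 6.44 CPM in Sub-ASCs, 5.32, 4.62 and 4.37 in Ab-ASCs and 9.11, 10.2 and 8.37 in PVASCs. PVASCs exceeded Sub-ASCs 1.36-fold (log2 0.44 ± 0.12 SE, edgeR adjusted p = 0.00449) and Ab-ASCs 1.94-fold (0.96 ± 0.12, adjusted p = 4.57e-05). Pcdhga2 had 4.64, 4.17 and 5.45 CPM in Sub-ASCs, 2.15, 1.82 and 2.54 in Ab-ASCs and 5.07, 4.95 and 5.03 in PVASCs, and was 2.31-fold higher in PVASCs than in Ab-ASCs (1.21 ± 0.16, adjusted p = 4.2e-05). Its Sub-ASC and PVASC libraries overlapped. Pcdhga3, with the next largest difference between PVASCs and Ab-ASCs in the gamma cluster, was 1.62-fold higher in PVASCs (0.69 ± 0.12, adjusted p = 0.000304). Unlike Pcdhga7 and Pcdhga2, it was lower in PVASCs than in Sub-ASCs (-0.84 ± 0.10, edgeR adjusted p = 9.6e-06).

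Of 12 protocadherin genes outside the clusters, 9 passed the filter, and in PVASCs 6 were higher than in Sub-ASCs, while 5 were higher and 1 lower than in Ab-ASCs. In Ab-ASCs 4 were higher and 2 lower than in Sub-ASCs. The shares called higher were 66.7% of the list between PVASCs and Sub-ASCs (34.7% of all genes tested), 55.6% between PVASCs and Ab-ASCs (24.7%) and, in Ab-ASCs over Sub-ASCs, 44.4% (37.0%), the last near that of all genes. The shares called lower were 0%, 11.1% and 22.2% in the same order (35.7%, 32.1% and 38.3% of all genes tested). Pcdh17 and Pcdh9 were higher in PVASCs than in Sub-ASCs by 3.03 and 2.66 on the log2 scale. The largest differences from Ab-ASCs were those of Pcdh20, at 3.47 between PVASCs and Ab-ASCs on the log2 scale (edgeR adjusted p = 1.37e-06), and of Pcdh12, a protocadherin of endothelial cells, at 3.20 (adjusted p = 7.39e-06).

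Among 18 genes known to act on the promoters and loops of the locus, which all passed the filter, 6 were higher and 2 lower in PVASCs than in Sub-ASCs, 10 were higher and 2 lower in PVASCs than in Ab-ASCs, and 3 were higher and 9 lower in Ab-ASCs than in Sub-ASCs. As shares of the list these are 33.3% and 11.1% (34.7% and 35.7% of all genes tested), 55.6% and 11.1% (24.7% and 32.1%), and 16.7% and 50.0% (37.0% and 38.3%). Stag2, a cohesin subunit, and Nipbl, which loads cohesin onto DNA, differed most, by -1.58 and -1.30 on the log2 scale between Ab-ASCs and Sub-ASCs (edgeR adjusted p = 1.34e-05 and 1.42e-05). Ab-ASC replicate 1 had the lowest Stag2 and Nipbl levels, at 2.21 and 2.37 FPKM, against 4.46 to 4.94 and 3.96 to 4.13 in the other Ab-ASC libraries. Ctcf was not called in any comparison, and between 10.96 and 14.2 FPKM were found in every library. Of 19 genes for cytoplasmic partners and cleavage of protocadherins, 7 were higher and 4 lower in PVASCs than in Sub-ASCs and 7 higher and 7 lower than in Ab-ASCs, where 36.8% in each direction stood beside 24.7% and 32.1% of all genes tested. In Ab-ASCs 7 were higher and 4 lower than in Sub-ASCs. Against Sub-ASCs the list's shares were 36.8% higher and 21.1% lower in both comparisons, with the higher share near the 34.7% and 37.0% of all genes. Between Ab-ASCs and Sub-ASCs the largest differences of this list were those of Psen2, a subunit of gamma-secretase, at -1.75 (edgeR adjusted p = 5.49e-10) and Cyfip2, a part of the WAVE complex, at -1.67 (adjusted p = 0.000461).

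Of 12 genes that flank or lie between the clusters, 11 passed the filter. In PVASCs 5 were higher and 3 lower than in Sub-ASCs and 1 was higher and 4 lower than in Ab-ASCs, and in Ab-ASCs 4 were higher and 4 lower than in Sub-ASCs. Against Sub-ASCs these shares, 45.5% and 27.3% in PVASCs and 36.4% in each direction in Ab-ASCs, were near those of all genes tested (34.7% and 35.7%, and 37.0% and 38.3%), and against Ab-ASCs 9.09% and 36.4% stood beside 24.7% and 32.1%. Arap3, a regulator of small GTPases beyond the gamma cluster, was higher in PVASCs than in Sub-ASCs by 2.18 and than in Ab-ASCs by 3.62 on the log2 scale (edgeR adjusted p = 1.13e-09 and 2.69e-10). Hars, the histidyl-tRNA synthetase gene before the alpha cluster, was higher in Ab-ASCs than in Sub-ASCs by 1.42 (adjusted p = 6.96e-10).

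Markers of other cells also differed between the depots, and their part in the protocadherin differences was not tested. Of all genes tested, 34.7% were called higher and 35.7% lower in PVASCs than in Sub-ASCs, and 37.0% and 38.3% in Ab-ASCs than in Sub-ASCs, and the counts of each list stand beside these shares. All 14 adipose stem cell markers examined were above 0 in every library, with summed levels of 5155 to 5202 FPKM in Sub-ASCs, 1812 to 1911 in Ab-ASCs and 1823 to 1880 in PVASCs. In PVASCs 4 of them were higher and 10 lower than in Sub-ASCs, the largest differences being those of Pi16 and Lum. Neuronal markers summed to 10.1 to 10.2 FPKM in Sub-ASCs, 25.5 to 28.5 in Ab-ASCs and 64.6 to 67.6 in PVASCs, mostly from Tubb3, with 8 of the 9 tested higher and 1 lower in PVASCs than in Sub-ASCs, while Dcx had no reads and Snap25 did not exceed 0.0986 FPKM. Without Tubb3 the neuronal sums were 1.12 to 1.36 FPKM in Sub-ASCs, 5.68 to 6.28 in Ab-ASCs and 6.80 to 7.23 in PVASCs. Schwann and glial markers summed to 61.2 to 63.9, 0.824 to 1.16 and 31.7 to 33.6 FPKM, with 6 of the 9 tested higher and 2 lower in PVASCs than in Sub-ASCs. Most of the Schwann and glial sum in Sub-ASCs was Ngfr (58.5 to 61.0 FPKM), and without this gene the sums were 2.735 to 2.996 FPKM in Sub-ASCs, 0.652 to 0.916 in Ab-ASCs and 12.95 to 14.05 in PVASCs, now highest in PVASCs. Endothelial markers summed to 49.6 to 51.9, 15.4 to 16.5 and 201.6 to 203 FPKM, with 9 of 11 higher and 2, Tek and Cldn5, lower in PVASCs than in Sub-ASCs. Smooth muscle and pericyte markers summed to 52.5 to 54.4, 2328 to 2758 and 1637 to 1714 FPKM, mostly from Acta2 in Ab-ASCs and PVASCs, with 9 of the 11 tested higher and 2 lower in PVASCs than in Sub-ASCs. For mesothelial markers the sums were 1.70 to 1.89, 43.7 to 46.6 and 24.9 to 26.1 FPKM, and 12 of the 13 tested were higher in Ab-ASCs than in Sub-ASCs. Macrophage and blood markers summed to 219 to 230, 225 to 284 and 256 to 263 FPKM, with 2 of 11 higher and 9 lower in PVASCs than in Sub-ASCs. Without Lyz2, the gene with the highest level of that list, the sums ran the other way, at 100.5 to 108 FPKM in Sub-ASCs, 52.7 to 65.3 in Ab-ASCs and 51.65 to 54.79 in PVASCs. Proliferation genes summed to 47.6 to 49.6, 367 to 370 and 320.0 to 323 FPKM, and 15 of 15 were higher in both PVASCs and Ab-ASCs than in Sub-ASCs.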

How the data were processed

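RNA-seq libraries (NEBNext Ultra kit, 1 ug of total RNA) of cultured ASCs, 9 in all, were read from a table of raw counts per gene that the authors deposited, with gene length and biotype beside them. The submitters' processing notes name CASAVA 1.8, Bowtie 0.12.2, featureCounts 1.5.0-p3 and the builds mm8 and mm10. The strand and overlap settings are not given in the sources used here. Start and end of 98.04% of the 54532 rows equal those of GENCODE M21 (GRCm38), which was used for exon overlaps.

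Genes were filtered with filterByExpr, scaled by TMM and tested in 1 fit of all 9 libraries with the quasi-likelihood test of edgeR 4.0.16 (R 4.3.3), with Benjamini-Hochberg adjustment over all genes tested and a threshold of 0.05. Cluster sums were tested in the same way in a separate fit, where they stood in place of the single members. FPKM values were calculated from the counts. DESeq2 1.42.0, RLE size factors, other filters, 2-group fits, a replicate block and leaving out each library were the alternatives. A trial of the fit on simulated data changed only a small set of genes in PVASCs, unlike these data, and nothing is read from it.

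The members and gene lists were chosen with earlier results of these data known. Named with values were the 4 members per cluster with the highest mean FPKM, the C-type members, per comparison and cluster the 3 called members with the largest log2 difference, and the 2 such genes of other lists; further genes were chosen after their values were seen. Intervals of count ratios are exact at 95% and cover counting error only.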

Additional observations from a re-analysis of the deposited data

How the results depend on the processing

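Of the 102 member calls, 90 were kept under every alternative run for them other than a required log2 difference of at least 1. Between PVASCs and Ab-ASCs the count of lower members, 5 in the report, was 2 with DESeq2, 2 in a fit of these groups only, 1 with a log2 difference of at least 1 and 1 to 5 on leaving out single libraries. With the same limit on the difference, 17 members were lower in PVASCs than in Sub-ASCs and 9 higher than in Ab-ASCs. The members higher in Ab-ASCs than in Sub-ASCs numbered 2 with no filter, 0 with at least 10 reads in every library, where Pcdhac2 was not tested, and 1 to 2 on leaving out single libraries. Without the member with the most reads the alpha sums differed by 0.26 (PVASC and Sub-ASC), 0.41 (PVASC and Ab-ASC) and -0.16 (Ab-ASC and Sub-ASC), and the gamma C sums of PVASCs and Ab-ASCs by 0.067. The ratio of Pcdhgc3 to the next gamma member was 11.1 over unshared exon bases.

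Deviations of same-numbered libraries correlated between -0.152 and 0.254, and those of differently numbered libraries between -0.299 and 0.263. With so few libraries per group, this check cannot decide whether libraries shared a donor or batch. With the replicate number as a block, 2 members were higher and 33 lower in PVASCs than in Sub-ASCs, 22 higher and 4 lower than in Ab-ASCs, and 1 higher and 37 lower in Ab-ASCs than in Sub-ASCs. Depth limits the alpha members most, since 3 reads are 0.0917 to 0.161 CPM.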

Other observations

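Genes within the locus that are not members were looked at after their values were seen. Pcdhgb8, the polymorphic pseudogene of the gamma cluster, had 24, 66 and 42 reads in Sub-ASCs, 17, 15 and 17 in Ab-ASCs and 34, 22 and 44 in PVASCs. BC037039, antisense to Pcdhgc3, had 46, 52 and 61, then 15, 9 and 9, then 29, 32 and 21 reads, with Ab-ASCs differing from Sub-ASCs by -2.01 on the log2 scale. Gm10544 had 3, 12 and 8 reads in Sub-ASCs, 10, 18 and 12 in Ab-ASCs and 54, 36 and 47 in PVASCs, so that its PVASC libraries were the highest, as were those of Pcdhac2. Taf7, a single-exon gene between the beta and gamma clusters, was lower than in Sub-ASCs by log2 differences of -1.25 in PVASCs and -1.33 in Ab-ASCs.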
